A study of Homo sapiens with 9 samples.

Results

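The core spliceosome was examined through the messenger RNAs of 42 of its components in K562, an established human erythroleukaemia line derived from chronic myeloid leukaemia. The 42 genes were chosen by symbol, as a list of components. They encode proteins of the U1, U2 and U4/U6.U5 small nuclear ribonucleoproteins (snRNPs), the SF3A and SF3B complexes, U2AF and its partners, PRPF factors and DEAH-box helicases. All 42 were found among the 63677 gene rows of the count files, and all 42 passed the filter on low counts that left 18173 genes for testing. The groups were 4 CRISPR clones carrying the P95H substitution in SRSF2 (P9, P15, P22 and P38), 4 CRISPR clones with wild-type SRSF2 (WT; W19, W33, W36 and W42), and the unedited parental line. Each clone and the parental line gave 1 library of polyadenylated RNA. The labels do not state the zygosity of P95H or whether clones within a group were edited independently, so p-values measure the spread between these clones.

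The spliceosome removes introns in a fixed order of events. U1 binds the 5′ splice site, SF1 and U2AF mark the branch point and the 3′ splice site, and U2 then replaces SF1 with the help of SF3A and SF3B. The U4/U6.U5 tri-snRNP joins, and helicases and the PRP19 complex rearrange the assembly into its catalytic form. SRSF2 is an SR protein that binds exonic enhancers and promotes recruitment of U1 and U2, and P95H is a recurrent substitution in myelodysplastic syndromes that changes which enhancer sequences it prefers. SF3B1, U2AF1 and ZRSR2, all among the 42 genes, are themselves recurrently mutated in those diseases.

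Assigned counts per library were between 24546255 and 35477328, and counts of the 42 genes lay between 384 (ZRSR2) and 15976 per library, so counting error was small for every one of them. A count of 3, the limit that a count of 0 allows, corresponded to 0.0846 to 0.122 CPM (read counts brought to a common library total by trimmed-mean-of-M-values scaling), and that limit covers counting error only. All 10 erythroid markers were above 1 CPM in every library. Fibroblast markers summed to 1.28 to 10.6 CPM, granulocyte markers to 4.44 to 13.5 CPM and lymphoid markers to 4.63 to 33.1 CPM, with CD3D at 1.08 to 23.4 CPM and MS4A1 at 0 throughout. SRSF2 itself had 444, 456, 518 and 578 CPM in P9, P15, P22 and P38, against 499, 448, 507 and 502 CPM in W19, W33, W36 and W42 and 514 CPM in the parental line. The difference of P95H from WT was 0.04 on the log2 scale (edgeR adjusted p = 0.917). Gene counts do not show which allele a read came from, so the substitution itself was not checked. Of the WT libraries, W33 stood apart from the other 3 for many of the genes, and the log2 differences of P95H from WT are therefore given with and without it.

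Divided by length, the mean levels of the 42 genes spanned 29.3-fold in P95H clones and 48.9-fold in WT clones (43.5-fold without W33). Length was that of the merged exons of all annotated transcripts (693 bases in SF3B5, 11112 in U2AF1), which can exceed the messenger RNA. Reads counted on pseudogene copies of genes such as SNRPE and SNRPG were left out. The span and the order of genes per kilobase therefore also depend on the annotation. Per kilobase of exon, SF3B5, the smallest subunit gene of SF3B, was the most abundant with a mean of 222 CPM in P95H clones and 349 CPM in WT clones. SNRPD2, an Sm ring protein, followed with 178 and 236 CPM per kilobase in P95H and WT clones. At the other end stood ZRSR2, which recognises the 3′ splice site of minor introns, with 7.66 CPM per kilobase in P95H and 7.13 in WT clones, and SNRPA1, which encodes the A′ protein of U2, with 7.57 in P95H and 10.3 in WT clones.

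No member of the core spliceosome passed the test between P95H and WT clones. The count was 0 of 42 members at an adjusted p under 0.05 (edgeR quasi-likelihood test, Benjamini-Hochberg adjustment over 18173 genes), beside 0% of all genes tested. DESeq2 also called 0 members, beside 1.59% of the genes it gave an adjusted p, and limma-voom 0 members, beside 0.325%. At an unadjusted p under 0.05 there were 5 members lower in P95H, beside 5.65% of all genes, and 0 members higher, beside 6.07%. Below 0 lay the log2 differences of 32 of 42 members, against 47.9% of all genes. The median of the members was -0.16, against 0.01 over all genes tested. Without W33 the median of the members was -0.06, against 0.01 over all genes tested. Below 0 were then 32 of 42, beside 47.9% of all genes, and 30 of the 32 were also below 0 with W33. Leaving W33 out put SF3B4 and RBM17 above 0, and SF3B1 and CDC5L below.

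In 4 of the 42 genes every P95H clone was below every WT clone, beside 4.63% of all genes tested. They were U2AF2 of the 7 branch point and 3′ splice site genes, SNRPA1 and SNRPB2, which are the 2 U2-specific genes, and SF3B5 of the 5 SF3B genes. A link between role and the order of the groups was not tested. The SF3A genes and the other SF3B and branch point genes overlapped between the groups. In 0 of 42 was every P95H clone above every WT clone, beside 3.94%. Without W33 the first count was 5, with U2SURP added (7.56% of all genes), and the second was 1, U2AF1 (6.97%). The promoters of these 4 genes are shown because they are the members whose groups did not overlap, although none passed the test. Each line gives the 250 bases before the annotated transcription start, 5′ to 3′ on the gene's strand (RefSeq, GRCh38.p14), for U2AF2 at chr19:55654785-55655034 on the plus strand, SNRPA1 at chr15:101295249-101295498 on the minus strand, SNRPB2 at chr20:16729776-16730025 on the plus strand and SF3B5 at chr6:144095574-144095823 on the minus strand, and capitals mark CCGGAAG or its reverse complement CTTCCGG, a core motif of ETS-family factors.
U2AF2: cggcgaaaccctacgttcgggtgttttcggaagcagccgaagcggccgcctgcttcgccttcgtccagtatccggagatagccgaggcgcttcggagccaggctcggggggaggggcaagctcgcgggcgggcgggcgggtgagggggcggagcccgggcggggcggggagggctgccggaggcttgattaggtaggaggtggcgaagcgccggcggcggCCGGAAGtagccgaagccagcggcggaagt
SNRPA1: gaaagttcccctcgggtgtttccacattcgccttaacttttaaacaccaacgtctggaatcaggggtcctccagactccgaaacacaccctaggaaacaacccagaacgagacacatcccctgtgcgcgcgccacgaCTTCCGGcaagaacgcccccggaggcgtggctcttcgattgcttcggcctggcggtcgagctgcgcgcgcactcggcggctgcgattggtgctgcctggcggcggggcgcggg
SNRPB2: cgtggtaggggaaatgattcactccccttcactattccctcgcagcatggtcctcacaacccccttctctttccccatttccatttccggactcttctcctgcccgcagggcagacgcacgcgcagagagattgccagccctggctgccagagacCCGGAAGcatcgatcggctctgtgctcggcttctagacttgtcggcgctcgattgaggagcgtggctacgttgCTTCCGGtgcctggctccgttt
SF3B5: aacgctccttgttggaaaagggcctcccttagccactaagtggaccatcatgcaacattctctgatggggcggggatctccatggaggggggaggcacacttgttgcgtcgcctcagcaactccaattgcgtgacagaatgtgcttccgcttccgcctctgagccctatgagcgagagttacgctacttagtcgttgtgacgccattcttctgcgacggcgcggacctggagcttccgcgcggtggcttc

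The U2AF2, SNRPA1 and SNRPB2 windows hold the ETS motif and the SF3B5 window does not. Across the members, promoters of 38 of 42 were matched (not PRPF3, PUF60, SF3B3 or SNRPD1), and 19 of 38 held CCGGAAG on either strand, which is 50%. The motif was in 8.52% of all 35116 promoters of the same length and in 13.95% of the 15527 promoters of genes tested here. All 3 SF3A genes, both U2-specific genes and 4 of 6 Sm genes had it, and neither of the U4/U6 genes matched did. The SNRPE and SNRPG windows, counted among these, also hold the first codons of their proteins, so they are not purely upstream sequence. In SNRPG the motif lies after those codons, and in SNRPE before them. AAGATGG, a core of YY1 sites, was in 2 of 38 members, or 5.26%, in 3.70% of all promoters and in 3.71% of those of genes tested. GCATGCGC, a core of NRF1 sites, was in 2 of 38 members, in 2.63% of all and in 4.15% of those of genes tested. CCAAT was found in 39.5% of the members' promoters, 32.0% of all and 32.8% of those of genes tested. For TATAAA these shares were 2.63%, 10.7% and 5.89%. Both strands were searched, and a match is a description of these letters only.

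U2AF2, the large U2AF subunit, which binds the polypyrimidine tract, had 259, 262, 288 and 274 CPM in P9, P15, P22 and P38, against 321, 318, 322 and 322 CPM in W19, W33, W36 and W42. The 4 WT clones lay within a few CPM of each other, W33 included, and the highest P95H clone was below the lowest WT clone. The means were 271 ± 13.2 CPM in P95H and 321 ± 1.74 CPM in WT (SD, n = 4 each), a log2 difference of -0.23 (SE 0.09, edgeR adjusted p = 0.359). Over the other settings its adjusted p ranged between 0.0565 (DESeq2) and 0.654, and without W33 the log2 difference was -0.24. With the trend on length and GC removed across all genes, the log2 difference of U2AF2 was smaller, at -0.17. The parental line, with 329 CPM, was beside the WT clones.

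SNRPA1 and SNRPB2, which encode the A′ and B″ proteins that sit together on a stem-loop of U2 RNA, showed the same order of groups. SNRPA1 had 23.5, 27.9, 29.5 and 30.2 CPM in P9, P15, P22 and P38, against 34.3, 46.1, 37.3 and 33.2 CPM in W19, W33, W36 and W42 and 37.6 CPM in the parental line. SNRPB2 had 57.8, 52.6, 69.5 and 67.4 CPM in the P95H clones, against 70.5, 80.2, 72.5 and 71.0 CPM in the WT clones and 84.8 CPM in the parental line. For SNRPB2 the groups met closely, since P22 lay just under W19, while P9 and P15 were further below. The log2 differences were -0.43 for SNRPA1 (SE 0.14, edgeR adjusted p = 0.333) and -0.24 for SNRPB2 (SE 0.12, edgeR adjusted p = 0.449). Without W33 they were -0.33 and -0.20.

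SF3B5, a small SF3B subunit, had 137, 157, 148 and 172 CPM in P9, P15, P22 and P38, against 197, 367, 211 and 191 CPM in W19, W33, W36 and W42. W33 alone was far above all other clones, and the parental line, with 269 CPM, lay between W33 and the rest. The log2 difference of -0.64 was the most negative among the 42 (SE 0.20, edgeR adjusted p = 0.331), and it was -0.38 without W33.

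**Figure D1:**
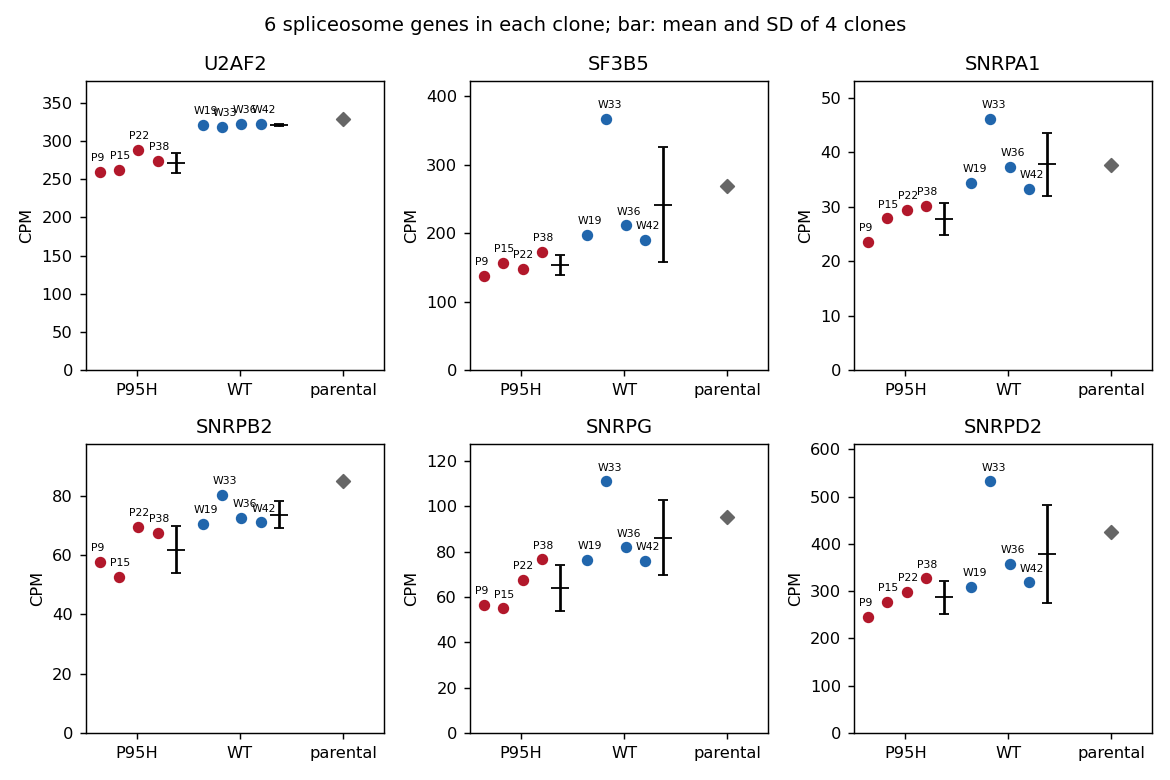
CPM (linear axis from 0) of 6 genes in each P95H clone, each WT clone and the parental line; points are libraries, and the bar beside each group is its mean and SD over 4 clones. In U2AF2, SF3B5, SNRPA1 and SNRPB2 every P95H clone lies below every WT clone, in SNRPG and SNRPD2 the groups overlap, and W33 is the highest WT clone in every panel except U2AF2.

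By role, SNRNP70, SNRPA and SNRPC, which encode proteins of the U1 snRNP, were all below 0 in P95H against WT. Their log2 differences were -0.24, -0.22 and -0.24, with adjusted p of 0.549, 0.618 and 0.531 (edgeR). Without W33 they were at -0.06, -0.02 and -0.10. All 7 Sm ring genes, whose products encircle the spliceosomal RNAs, were below 0 with a median of -0.23, and with -0.05 without W33. SNRPG and SNRPD2 had the smallest p among them. SNRPG had 56.4, 55.0, 67.6 and 76.6 CPM in P9, P15, P22 and P38, against 76.3, 111, 81.9 and 75.8 CPM in W19, W33, W36 and W42, so that P38 overlapped the WT clones. Its log2 difference was -0.42 (SE 0.16, edgeR adjusted p = 0.359), and -0.28 without W33. SNRPD2 had 246, 276, 299 and 327 CPM in the P95H clones, against 310, 532, 357 and 319 CPM in the WT clones, with P38 above W19 and W42. Its log2 difference was -0.39 (SE 0.17, edgeR adjusted p = 0.426), and -0.19 without W33. SNRPD3, the next of the Sm genes by p, was at -0.23, and at -0.06 without W33, and the other 4 lay between -0.25 and -0.16, and between -0.05 and -0.02 without W33.

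SF3A and SF3B, which clamp U2 to the branch point, held members on both sides of 0. In SF3A the log2 difference was 0.14 for SF3A1, -0.24 for SF3A2 and -0.15 for SF3A3, and without W33 they were at 0.14, -0.11 and -0.13. SF3A3 took its low P95H mean from P9 (281 CPM, against 384 to 414 CPM in P15, P22 and P38). SF3A2 shares 12.7% of its exon bases with PLEKHJ1 on the other strand. The kit named does not mark strand, and the effect of reads from the shared bases on the counts was not tested. In SF3B, SF3B5 stood at one end and SF3B3, a scaffold subunit, at the other with 0.18 (SE 0.11, edgeR adjusted p = 0.532), the same without W33. SF3B2 was at -0.23, and at -0.08 without W33. SF3B1, the subunit that contacts the branch-point duplex, had 316, 305, 319 and 332 CPM in P9, P15, P22 and P38, against 306, 202, 316 and 359 CPM in W19, W33, W36 and W42. Only W33 was low, and the log2 difference of 0.11 (edgeR adjusted p = 0.811) became -0.04 without it. SF3B4 likewise was at -0.15, and at 0.03 without W33.

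Among the 7 genes of branch point and 3′ splice site recognition the median log2 difference was -0.06, and 5 of 7 were below 0. Without W33 the median was -0.01, and 4 of 7 were below 0. U2AF1, the small U2AF subunit that reads the AG of the 3′ splice site, had 299, 296, 289 and 292 CPM in P9, P15, P22 and P38, against 264, 377, 286 and 258 CPM in W19, W33, W36 and W42. The P95H clones were tightly grouped, W33 was the highest clone, and the difference was 0.00 with all clones and 0.13 without W33. U2SURP, a U2-associated SR-related protein, went the other way about W33. It had 234, 198, 208 and 227 CPM in the P95H clones, against 238, 178, 273 and 294 CPM in the WT clones, so that only W33 lay under the P95H range. Its log2 difference was -0.17 (edgeR adjusted p = 0.678), and -0.30 without W33 (edgeR adjusted p = 0.297). PUF60, which binds polypyrimidine tracts beside U2AF2, was at -0.29 and at -0.08 without W33, and SF1, RBM17 and ZRSR2 were at -0.06, -0.00 and 0.11, and at -0.01, 0.07 and 0.21 without W33.

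Among the factors that act later, the U4/U6 genes PRPF3, PRPF4 and PRPF31 were at -0.12, -0.05 and -0.24, and at -0.08, -0.06 and -0.03 without W33. Of the 6 U5 and tri-snRNP genes, 3 were below 0 and 3 above, with a median of -0.01, and of -0.00 without W33. PRPF8, the scaffold of the catalytic core, was at 0.17 (SE 0.11, edgeR adjusted p = 0.555), the bridging factor PRPF6 at -0.16 and the helicase DDX23 at -0.10. Without W33 these were at 0.11, -0.02 and -0.07. The helicase SNRNP200, SNRNP40 and the GTPase EFTUD2 were at 0.10, 0.04 and -0.06, and at 0.02, 0.01 and -0.07 without W33. In the PRP19 complex the ubiquitin ligase PRPF19, PLRG1 and CDC5L were at -0.20, -0.15 and 0.00, and at -0.06, -0.21 and -0.12 without W33. The DEAH helicases DHX15, DHX16 and DHX38, which remodel or take apart the spliceosome, were at -0.00, -0.03 and 0.03, and at -0.14, -0.01 and 0.03 without W33. Across the 42 genes the log2 difference was more positive for longer genes, with a Spearman rho of 0.62 over genes measured in the same libraries. The rho was 0.21 without W33 and 0.42 with the trend on length and GC removed, against 0.12 over 17554 genes with all clones. Single clones against the rest of their group gave the members 0.67, -0.67, 0.63 and 0.58 in W19, W33, W36 and W42. In P9, P15, P22 and P38 the rho was 0.65, -0.04, -0.38 and -0.31.

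**Figure D2:**
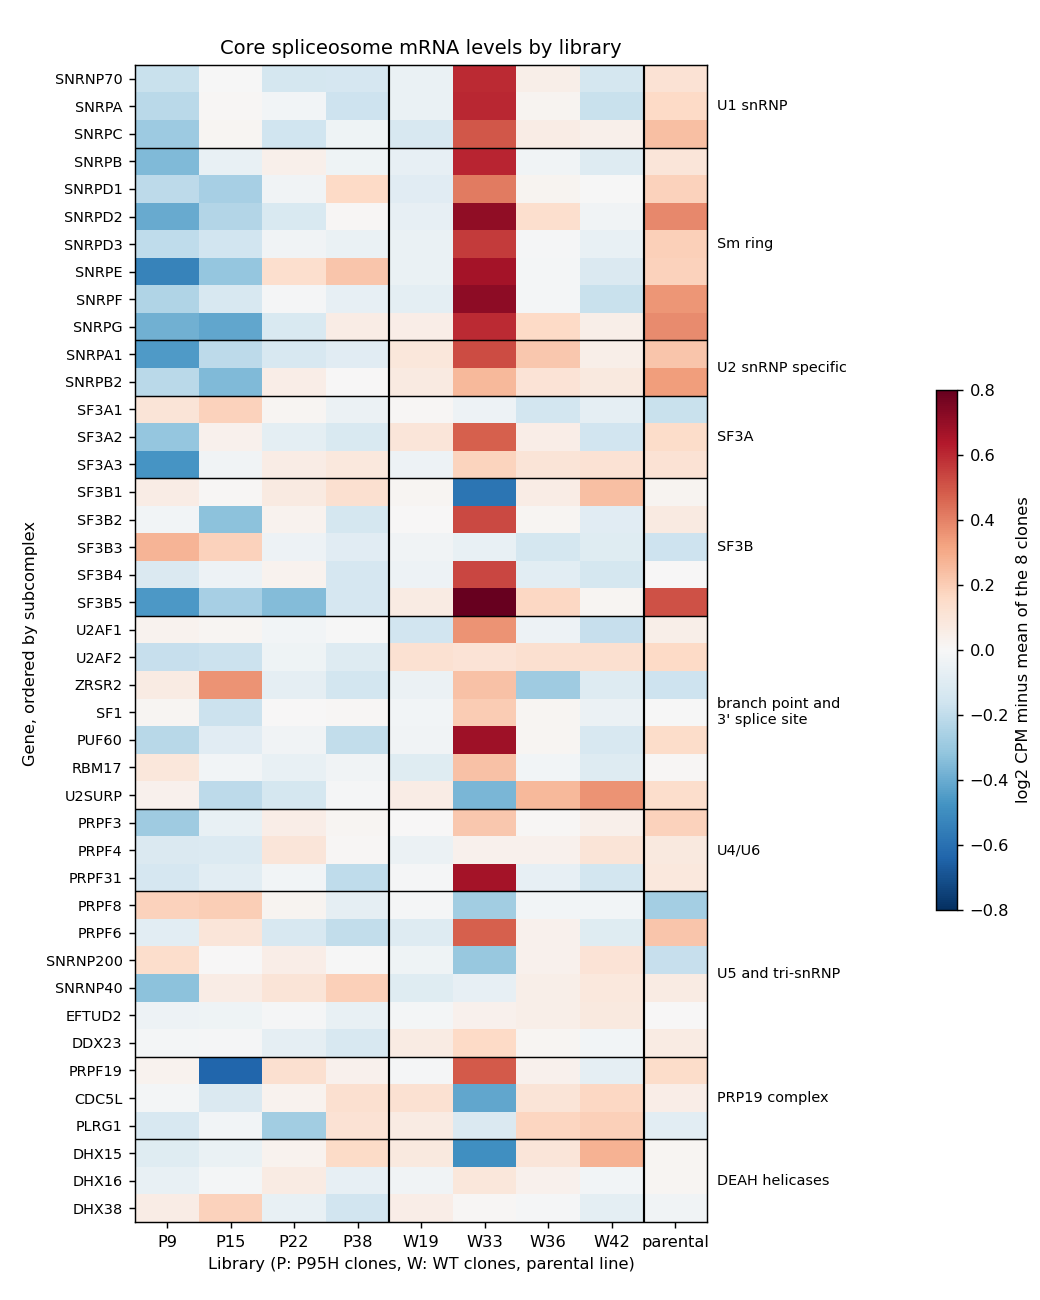
Colour gives the log2 CPM of each of the 42 genes (rows, by subcomplex) in each library (columns: P95H clones, WT clones, parental line) minus its mean over the 8 clones. W33 is the one column that is red for U1, Sm and most SF3B genes and blue for SF3B1, U2SURP, CDC5L and DHX15. The parental column is also above 0 for U1 and Sm genes, with medians of 0.16 and 0.19, against 0.60 and 0.61 in W33. P9 and P15 are the bluest P95H columns for the Sm genes.

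Clone W33 carried the one difference among the members that passed the test. Against the other 3 WT clones, 17 of 42 members passed an adjusted p under 0.05 (edgeR, 1 library against 3, the single library being assumed to vary like the others), beside 13.5% of all genes tested. In W33, 13 members rose, beside 6.16% of all genes, and 4 fell, beside 7.36%. By role they were 2 of 3 U1 genes, 4 of 7 Sm genes, 0 of 2 U2-specific genes, 0 of 3 SF3A genes, 4 of 5 SF3B genes, 3 of 7 genes of branch point and 3′ splice site recognition, 1 of 3 U4/U6 genes, 1 of 6 U5 and tri-snRNP genes, 1 of 3 PRP19 genes and 1 of 3 DEAH helicases. W33 was also the shallowest library, and the part of depth in the result was not tested.

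SF3B5 rose most, with 367 CPM in W33, against 200 ± 10.5 CPM in the other WT clones (SD, n = 3), a log2 difference of 0.85 (SE 0.14, edgeR adjusted p = 0.0151). SNRPF, an Sm protein, had 127 CPM in W33, against 72.7 ± 4.0 CPM in the others, a log2 difference of 0.78 (SE 0.12, edgeR adjusted p = 0.0151). PRPF31, needed for tri-snRNP formation, had 255 CPM in W33, against 153 ± 7.12 CPM. It shares 22% of its exon bases with the antisense gene PRPF31-AS1, and the effect of reads from these bases on its count was not tested. In SF3B5, SNRPF and PRPF31, W33 lay above the whole range of the other 7 clones. PUF60 was at 0.70, SNRPD2 at 0.67 and SNRPB, the shared SmB protein, at 0.65. The other 7 that rose were SNRPA, SNRNP70, SF3B4, SNRPD3, SF3B2, PRPF6 and U2AF1, between 0.46 and 0.64.

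SF3B1 fell most, with 202 CPM in W33, against 327 ± 27.9 CPM in the other WT clones (SD, n = 3), a log2 difference of -0.72 (SE 0.13, edgeR adjusted p = 0.0183). DHX15, the helicase that dismantles the intron complex after splicing, had 199 CPM in W33, against 311 ± 24.6 CPM, a log2 difference of -0.67 (SE 0.14, edgeR adjusted p = 0.0256). The other 2 that fell, U2SURP at -0.62 and CDC5L at -0.57, are named although the naming rule stops before them. SF3B5 and SF3B1, subunits of the same complex, thus moved in opposite directions in W33. U2AF2 did not follow: it had 318 CPM in W33, against 322 ± 0.516 CPM in the other WT clones, a log2 difference of -0.04, although the median of its 40 neighbouring genes was 0.52.

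The genes that rose and fell differed in length and base composition. The 13 that rose had a median exon length of 2673 bases (693 to 11112) and a median transcript GC of 56.6%, whereas the 4 that fell had 8663 bases (6423 to 11118) and 37.5%. Over all genes, the median W33 difference was -0.39, -0.12, 0.11 and 0.37 in 4 equal bins of rising GC, and 0.12, 0.17, -0.03 and -0.23 in 4 bins of rising length. Among the 42 genes the Spearman rho was -0.67 with length and 0.39 with GC, against -0.18 and 0.44 over 17554 genes, as a description of genes that share these libraries. With the trend on length and GC removed across all genes, 7 members were called, all higher, beside 2.33% of all genes higher and 2.29% lower. These were SNRPF (1.1), U2AF1 (0.79), SNRPG (0.74), SF3B2 (0.74), SNRPD1 (0.71), SF3B5 (0.65) and RBM17 (0.53), of which 4 were among the 17. None of the 4 genes that fell passed with the trend removed, and SF3B1 was then at -0.33 (edgeR adjusted p = 0.121).

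**Figure D3:**
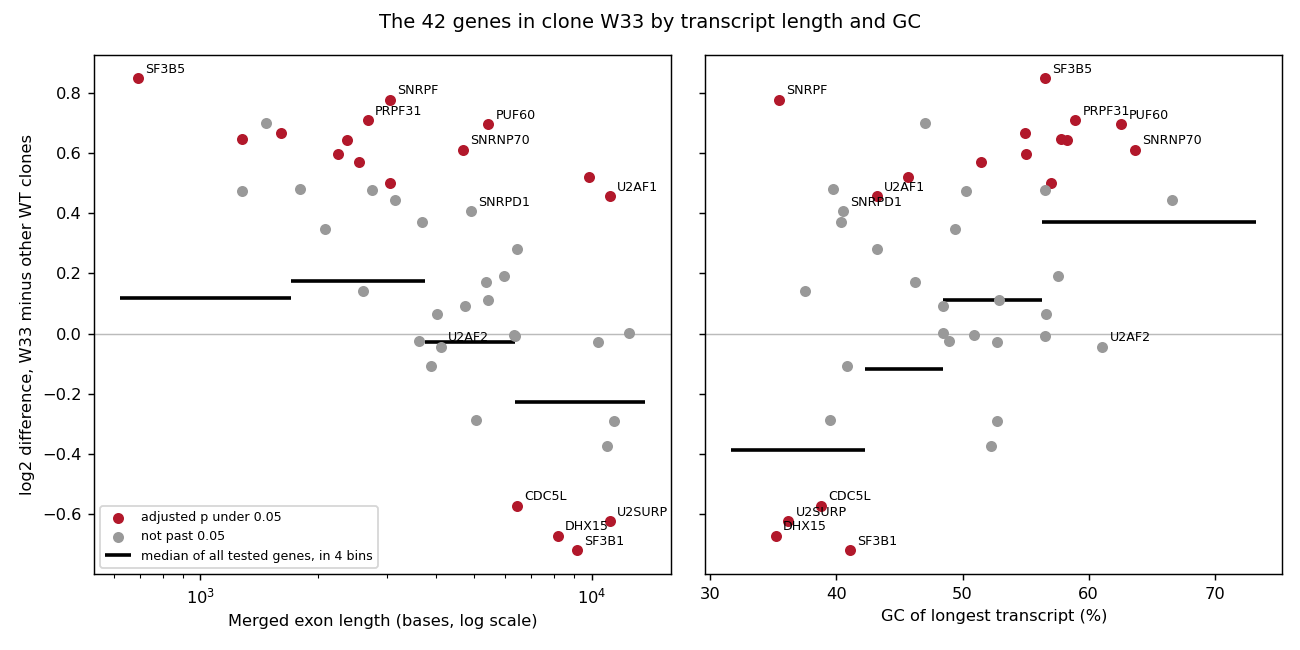
Each point is 1 of the 42 genes: its log2 difference in W33 against the other 3 WT clones by merged exon length (left, log axis) and by GC of its longest transcript (right); black bars are medians of all tested genes in 4 equal bins. Short and GC-rich genes such as SF3B5 lie above 0 and long, GC-poor ones such as SF3B1 below, while SNRPF and U2AF1 lie far above the bar at their GC and U2AF2 below it.

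The calls in W33 also rested on which WT clones it was set against. They numbered 6 without W19, 2 without W36 and 0 without W42, where over all genes 703, 262 and 0 passed, and the 17 genes kept their sign in each case. Of 75 other spliceosome genes tested in W33, 12 rose, beside 6.16% of all genes, among them GEMIN7 (0.93), LSM7 (0.92) and SNRNP35 (0.90). In the same list 4 fell, beside 7.36%, with CDC40 at -1.06. With the length and GC trend removed 4 of the 75 were called higher, beside 2.33% of all genes, and 0 lower, beside 2.29%.

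Each of the remaining 7 clones had 0 of 42 members called against the other clones of its group, beside 0% of all genes in P9, P38, W19 and W36, 0.0055% in P15, 0.022% in W42 and 0.369% in P22. In P9 and P15 the members with the smallest p lay together on a chromosome. In P9 all 5 members on chromosome 1 were below 0 against the other P95H clones, beside 52.7% of all genes, with a median log2 difference of -0.46, against -0.22 over the 1788 genes tested on that chromosome and -0.07 for the 37 other members. SF3A3 had 281 CPM in P9, against 402 ± 15.9 CPM in the other P95H clones (SD, n = 3), a log2 difference of -0.53 (SE 0.15, edgeR adjusted p = 1.0). SNRNP40, a WD-repeat protein of U5, had 119 CPM in P9, against 163 ± 7.58 CPM, a log2 difference of -0.46. Of their 40 nearest tested genes, 37 beside SF3A3 and 35 beside SNRNP40 were also below 0, with medians of -0.41 and -0.38. SNRPE, SF3B4 and PRPF3 had neighbours at 0.08, 0.05 and 0.05, so for these the neighbourhood was not low.

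In P15 all 3 members on chromosome 11 were below 0, beside 51.3% of all genes. PRPF19, the core ubiquitin ligase of its complex, had 181 CPM in P15, against 294 ± 11.3 CPM in the other P95H clones (SD, n = 3), a log2 difference of -0.70 (SE 0.23, edgeR adjusted p = 0.454). SF3B2 was at -0.28 and SF1, the first protein on the branch point, at -0.18, with 267 CPM in P15, against 304 ± 0.919 CPM. P15 was the lowest P95H clone for all 3 genes. Their neighbours were at -0.59, -0.52 and -0.38, and the chromosome as a whole at -0.32 over 1008 genes, against 0.01 for the other 39 members. Copy number was not measured, and its part in these values was not tested.

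**Figure D4:**
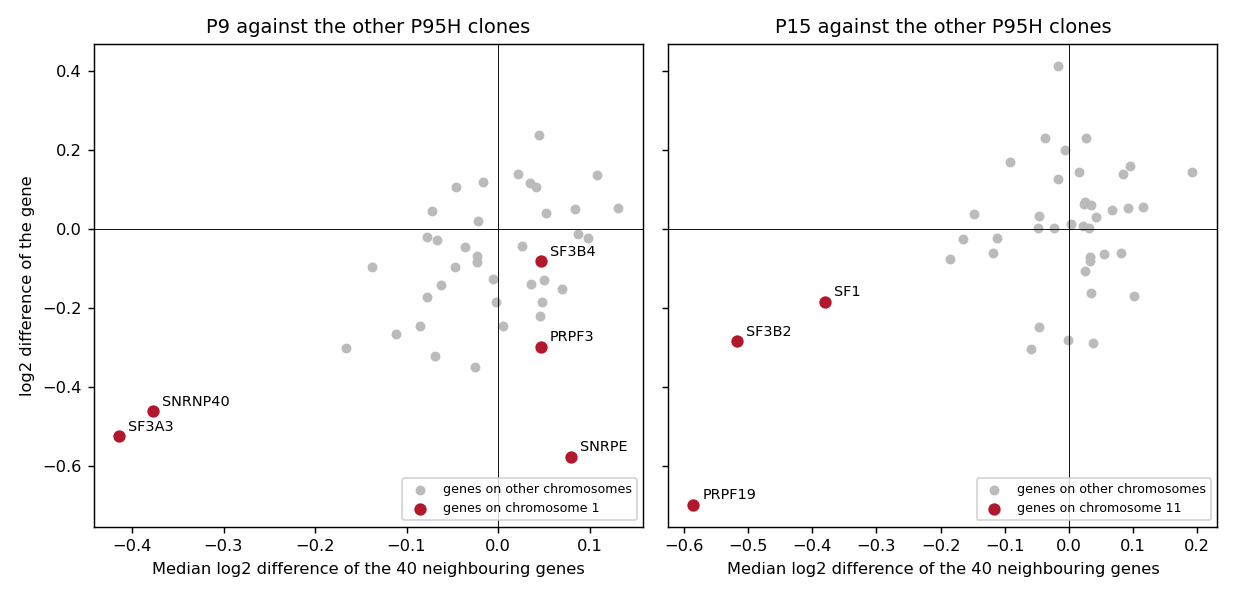
For each of the 42 genes, the log2 difference of P9 (left) or P15 (right) against the other 3 P95H clones (vertical axis) by the median log2 difference of its 40 nearest tested genes along the chromosome (horizontal axis). SF3A3 and SNRNP40 in P9, and PRPF19, SF3B2 and SF1 in P15, lie at the low end on both axes, while SNRPE in P9 is low among neighbours near 0.

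Against the parental line, P95H clones had 0 of 42 members called, beside 0% of all genes, and WT clones had 0 of 42, beside 0.00485%. Both comparisons share the 1 parental library. The median log2 difference of the members was -0.19 for P95H, with 34 of 42 below 0 (47.2% of all genes), and -0.01 for WT, with 23 of 42 below 0 (47.1% of all genes; median -0.09 without W33). SF3B5 at -0.81 and SNRPB2 at -0.46 had the smallest p in P95H against parental (edgeR adjusted p = 0.856 for each).

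Several Sm genes have processed pseudogenes, intronless copies that were counted as genes of their own. For SNRPE the copies SNRPEP4 and SNRPEP2 held 71.2% ± 1.93 of the reads of gene and copies in P95H clones and 72.1% ± 2.14 in WT clones (SD, n = 4 each). For SNRPG the copies held 62.2% ± 1.58 in P95H and 62% ± 1.2 in WT clones, and for SNRPF 19.8% ± 2.38 in P95H and 20.6% ± 1.33 in WT clones. The group means differed by less than their SDs, and most reads of SNRPE and SNRPG with their copies were thus counted outside the parent gene. With the copies added to the parent gene, the log2 difference of P95H from WT was -0.27 for SNRPE and -0.41 for SNRPG, and no call changed.

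**Figure D5:**
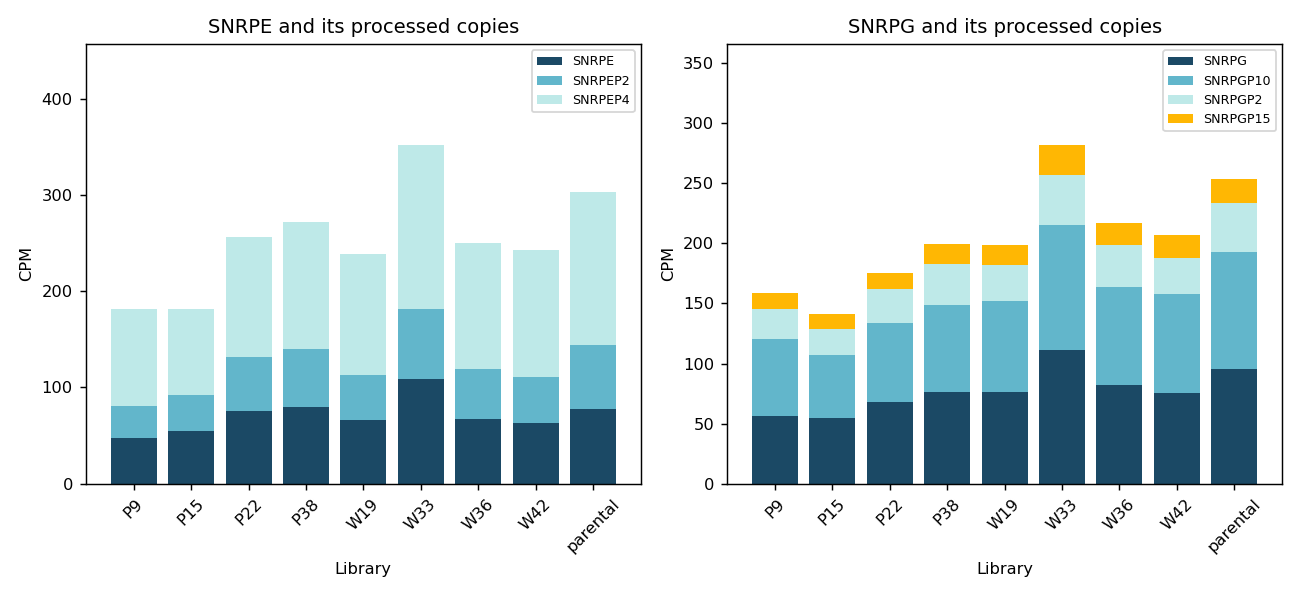
Stacked bars give the CPM of SNRPE (left) and SNRPG (right) with their processed copies in each P95H clone, each WT clone and the parental line. The copies hold 71.2% of the SNRPE stack and 62.2% of the SNRPG stack on average in P95H clones, and W33 has the tallest stack in both panels.

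The wider spliceosome was covered by 77 further genes, of which 76 were matched and 75 tested. Between P95H and WT clones 0 of 75 passed (edgeR), beside 0% of all genes tested. Below 0 lay 54 of 75, beside 47.9% of all genes, and the median log2 difference was -0.10, against 0.01 over all genes. Without W33 the median was -0.04, against 0.01 over all genes, with 53 of 75 below 0, beside 47.9% of all genes. The smallest p belonged to BCAS2, a PRP19-complex protein, at -0.27, and to CWC27 at -0.26. At an unadjusted p under 0.05 there were 4 lower, beside 5.65% of all genes, and 1 higher, beside 6.07%.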

How the data were processed

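RNA of 9 K562 libraries was compared by gene. Raw read counts per Ensembl gene were deposited by the authors unnormalised. The tools listed are TopHat2 2.0.4, HTSeq 0.6.1p1 and bcl2fastq, and the build GRCh37, per the submitters' processing notes. The kit named does not mark strand, and for the counter the strand setting is not given in the sources used here. Reads placed in no gene made up 47.6 to 49.1% of reads listed and stayed out of library sizes. Symbols, lengths and gene order came from GENCODE 29 by gene ID (52526 of 63677 matched) and promoters from RefSeq, both on GRCh38, so only the promoters carry coordinates.

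The main test was edgeR 4.0.16 (R 4.3.3) with filterByExpr, TMM scaling and the robust quasi-likelihood F test, with Benjamini-Hochberg adjustment over all genes and a threshold of 0.05. The parental line entered a 3-group fit, and each clone was set against the rest of its group in a fit of the 8 clones. CPM used TMM scaling over all 9 libraries. Alternatives were DESeq2 1.42.0, limma-voom 3.58.1, sva 3.50.0 with 1 surrogate variable, other scalings and filters, each clone left out, removal of the trend on length and GC (mgcv 1.9.3), and, added after seeing the data, processed copies summed into the parent gene. The main fit was also run on simulated counts that varied less between libraries than these data, so that run does not give its error rates here. Named with values were, per subcomplex, the genes with the smallest p, and in single clones those past the threshold (up to 8 by size) or the 2 with the smallest p; other members are given by their differences. The members and lists were chosen with earlier results of these data known.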

Additional observations from a re-analysis of the deposited data

Results flagged for a closer look

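The gap between the highest or lowest clone and its nearest neighbour was taken as a share of the range of its group of 4. It passed the critical value of Dixon's test in 16 of 86 groups tested. Chance would give about 4.3 if the groups were independent. They are genes measured in the same libraries, so 4.3 is no usable expectation, and the share over all genes is not given here. Of the 16 groups, 14 were W33 among the WT clones and 2 were P15 among the P95H clones.

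W33 was the highest WT clone for SNRPD3 (287 CPM, against 187 to 193 in the other WT clones, ratio 0.936), SNRPB (0.911), SNRPE (0.899), SF3B5 (0.883), SF3B4 (0.881), PRPF31 (0.870), SNRPF (0.865), PUF60 (0.863), SF3B2 (0.850), PRPF19 (0.843) and PRPF3 (0.839). W33 was the lowest for PRPF8, the catalytic scaffold (296 CPM, against 353 to 357, ratio 0.944), for CDC5L (104 CPM, against 149 to 156, ratio 0.872) and for SRSF2 (448 CPM, against 499 to 507, ratio 0.865).

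P15 was the lowest P95H clone for SF1 (267 CPM, against 303 to 304 in the other P95H clones, ratio 0.953) and for PRPF19 (181 CPM, against 287 to 307, ratio 0.839). Both genes are on chromosome 11. What set these clones apart was not tested.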

How the results depend on the processing

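No member was called between P95H and WT clones under any setting run, and 32 of the 42 members kept the sign of their log2 difference throughout. The median of all members was -0.0588 without W33 (leaving out 1 clone at a time, -0.206 to -0.0588), that of the U5 and tri-snRNP genes was -0.0522 with the length and GC trend removed, and 1 member had every P95H clone above every WT clone without W33. Calls in W33 were 0 to 6 when 1 other WT clone was left out and 7 with the trend removed, and the 17 genes kept their sign.

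Signs turned in 10 members and SRSF2, and the cause was not tested. Leaving out 1 clone gave -0.0382 to 0.0809 for SRSF2, -0.232 to 0.0276 for SF3B4, -0.0366 to 0.210 for SF3B1, -0.000319 to 0.210 for ZRSR2, -0.0509 to 0.0745 for RBM17, -0.0734 to 0.130 for U2AF1, -0.0243 to 0.126 for SNRNP40, -0.118 to 0.0504 for CDC5L, -0.0328 to 0.0805 for DHX38 and -0.14 to 0.0901 for DHX15. With W33 and P22 both left out, SRSF2 was -0.0300, SF3B1 -0.0417, RBM17 0.0898, SNRNP40 -0.0227 and CDC5L -0.127. Relative log expression scaling gave -0.00581 for U2AF1 and -0.000841 for CDC5L, upper quartile scaling -0.0175 and -0.0131, DESeq2 -0.00575 and -0.000916, and the 3-group fit -0.0106 and -0.00359. Limma-voom gave 0.0600 for RBM17, -0.00408 for SNRNP40, -0.0815 for CDC5L and -0.0131 for DHX38. A surrogate variable gave 0.0502 for RBM17 and -0.0851 for CDC5L. With the trend removed U2AF1 was -0.146, SNRNP40 -0.00551, CDC5L -0.0469 and DHX16 0.00337. No filter gave 0.00715 for RBM17 and 0.00485 for DHX15, and the stricter filter 0.00107 for DHX15.

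No paired analysis was possible because no clone number is shared by 2 groups. With 1 library per clone, clonal variation and the genotype can be compared only over 4 clones a group, and 1 parental library gives no spread of its own. Counts per gene do not show splicing itself, and in bulk RNA fewer cells and less RNA per cell cannot be told apart.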
